A study of Mus musculus with 12 samples.

Results

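Synaptic vesicle and release machinery is described here as 47 genes that build synaptic vesicles or drive their fusion and recovery at the presynaptic terminal. The genes were taken by name from the deposited matrix, with a mean count of at least 10 over the 12 libraries required, and all 47 listed genes met this and were tested, among 15656 genes tested of 19336 named loci. The study sequenced RNA from WT mouse hippocampal cultures prepared at postnatal day 4 and kept for 8 days before treatment. The groups were DAPT+sErbB4 (20 µM DAPT and then 20 nM sErbB4), sErbB4 alone (20 nM), DAPT alone (20 µM) and vehicle, with 3 libraries each. DAPT blocks γ-secretase, the membrane protease that cuts Type III Nrg1, Notch receptors and other membrane proteins. sErbB4 is the recombinant soluble ectodomain of ErbB4, which binds Nrg1 on the neuronal surface. DAPT was given ahead of sErbB4, overnight by the sample labels, and RNA was taken a few hours after sErbB4 was added. No genetic change was part of the comparison. Per the study the libraries of a group were platings of cells from several mice, which are not identified per library, so p values measure the spread between platings and not between animals.

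A synaptic vesicle is filled with transmitter by a transporter, held in clusters by synapsins, and docked at the active zone, a protein scaffold under the presynaptic membrane. There, RIM and Munc13 proteins prime it. The SNARE proteins Snap25, syntaxin and Vamp2 then fuse it with the membrane when calcium binds a synaptotagmin, and dynamin and its partners recover the membrane. In hippocampal neurons many of these genes rise as synapses form, and many serve as markers of presynaptic terminals.

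Upstream sequences of 3 members are shown because that of Syn1 holds known repressor and activator motifs of neuronal genes, while Syp and Syt11 moved in opposite directions with DAPT. The sequences are the 250 bases before the gene start in RefSeq (build GRCm38.p6), read 5′ to 3′ on the strand of the gene. Capitals mark matches, on either strand, to the letters TTCAGCACC (the left part of the RE1 element bound by REST, a repressor of neuronal genes), GGACAG (a right part of RE1), TGACGTCA (the full CRE bound by CREB), TGGGAA (a core of sites for the Notch effector CSL/RBPJ), CACNAG (the N-box of Hes repressors) and CACGCG (a class C site of Hes repressors).
Syp (chrX:7638330-7638579, plus strand): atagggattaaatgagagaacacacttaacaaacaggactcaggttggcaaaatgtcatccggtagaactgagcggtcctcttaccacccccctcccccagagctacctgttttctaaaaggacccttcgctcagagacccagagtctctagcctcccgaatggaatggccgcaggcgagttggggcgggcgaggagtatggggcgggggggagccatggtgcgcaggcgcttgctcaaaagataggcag
Syn1 (chrX:20920919-20921168, minus strand): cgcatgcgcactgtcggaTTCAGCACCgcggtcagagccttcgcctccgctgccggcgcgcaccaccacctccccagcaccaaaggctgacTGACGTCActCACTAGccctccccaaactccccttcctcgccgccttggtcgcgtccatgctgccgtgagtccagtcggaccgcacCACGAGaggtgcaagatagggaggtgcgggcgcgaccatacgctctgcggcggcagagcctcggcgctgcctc
Syt11 (chr3:88772600-88772849, minus strand): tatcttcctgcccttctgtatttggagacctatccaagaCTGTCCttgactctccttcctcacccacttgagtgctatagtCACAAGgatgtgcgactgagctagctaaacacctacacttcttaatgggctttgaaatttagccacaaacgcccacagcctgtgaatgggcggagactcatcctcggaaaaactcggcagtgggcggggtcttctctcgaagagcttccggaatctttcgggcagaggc
The Syp window held none of these motifs. The Syn1 window held the left RE1 part, the full CRE and 2 N-boxes, and the Syt11 window held 1 N-box and 1 right RE1 part. RefSeq windows were at hand for 35 of the 47 genes, 47 windows in all. The left RE1 part was in 1 of the 47 windows (2.13%), that of Syn1, against 0.301% of 32851 windows of all genes. CACGCG was in 21.3% of the member windows, against 7.62% of all windows and 13.5% of the windows of genes tested. TGGGAA was in 17% of the member windows, 21.6% of all windows and 20.6% of the windows of genes tested. In the same order, CACNAG was in 34%, 36.7% and 35.3%, and GGACAG in 27.7%, 18.7% and 19.6%. TGACGTCA was in 4.26% (2 windows), 1.55% and 2.48%. Some genes had several windows, which overlapped in part for Syt6, so the windows are not independent. By gene, GGACAG was in 28.6% of the 35 members with a window and 21% of all genes. The median GC content was 60.8% in the member windows, 59.6% in those of genes tested and 52.4% in all windows. Motif matches are a description of the letters only. No window was used for Snap25, Vamp2, Syn3, Syngr3, Rims2, Doc2b, Syt4, Syt5, Syt7, Syt12, Syt13 or Syt17.

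Library totals ranged from 36518802 to 54350270 estimated counts, of which 43.4 to 51.8% fell on loci without a gene name, and the 47 members held 50559 to 98386 counts per library. Levels are given as CPM, named counts scaled to a common library size with TMM factors. All 15656 genes entered the quasi-likelihood test of edgeR. Called genes had a p under 0.05 after Benjamini-Hochberg adjustment and a change of more than 0.32 on the log2 scale, the fold limit of the study. The mean DAPT effect sets the 6 libraries given DAPT against the 6 without it, averaged over both sErbB4 states.

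Most of the release genes were higher in DAPT libraries, by modest amounts. In the mean DAPT effect, 13 of 47 members (27.7%) were called higher, against 5.54% of all genes tested, and 3 of 47 (6.38%) were called lower, against 7.70% of all genes. By adjusted p alone, without the fold limit, 36 members (76.6%) were higher and 4 (8.51%) lower, against 18.1% and 19.7% of all genes. The median log2 fold change was 0.26 over the members and 0.01 over all genes tested, and 41 members were positive and 6 negative, from -0.74 to 0.55. The members' counts depend on the scaling: with libraries scaled to 24 pan-neuronal genes in place of all genes, 1 member was called higher and 4 lower, with 1.56% of all genes called higher and 21.2% lower. Under that scaling the median log2 fold change was 0.06 over the members, with 34 positive, and -0.18 over all genes. By adjusted p alone 11 members were then higher and 6 lower, against 4.05% and 49.6% of all genes. The gap of 0.25 between the medians is no separate result, as a rescaling shifts all genes by nearly the same amount. The 6 DAPT libraries all lay above the 6 others for 24 members, against 8.6% of all genes, and all below them for 3 members, against 11.8% of all genes. The summed level of the 47 genes was 3449 to 3623 CPM with DAPT+sErbB4 and 3214 to 3327 CPM with DAPT alone, against 2962 to 3169 CPM with sErbB4 alone and 2703 to 2841 CPM with vehicle. In bulk RNA, fewer cells of a type and less RNA per cell cannot be told apart.

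**Figure D1:**
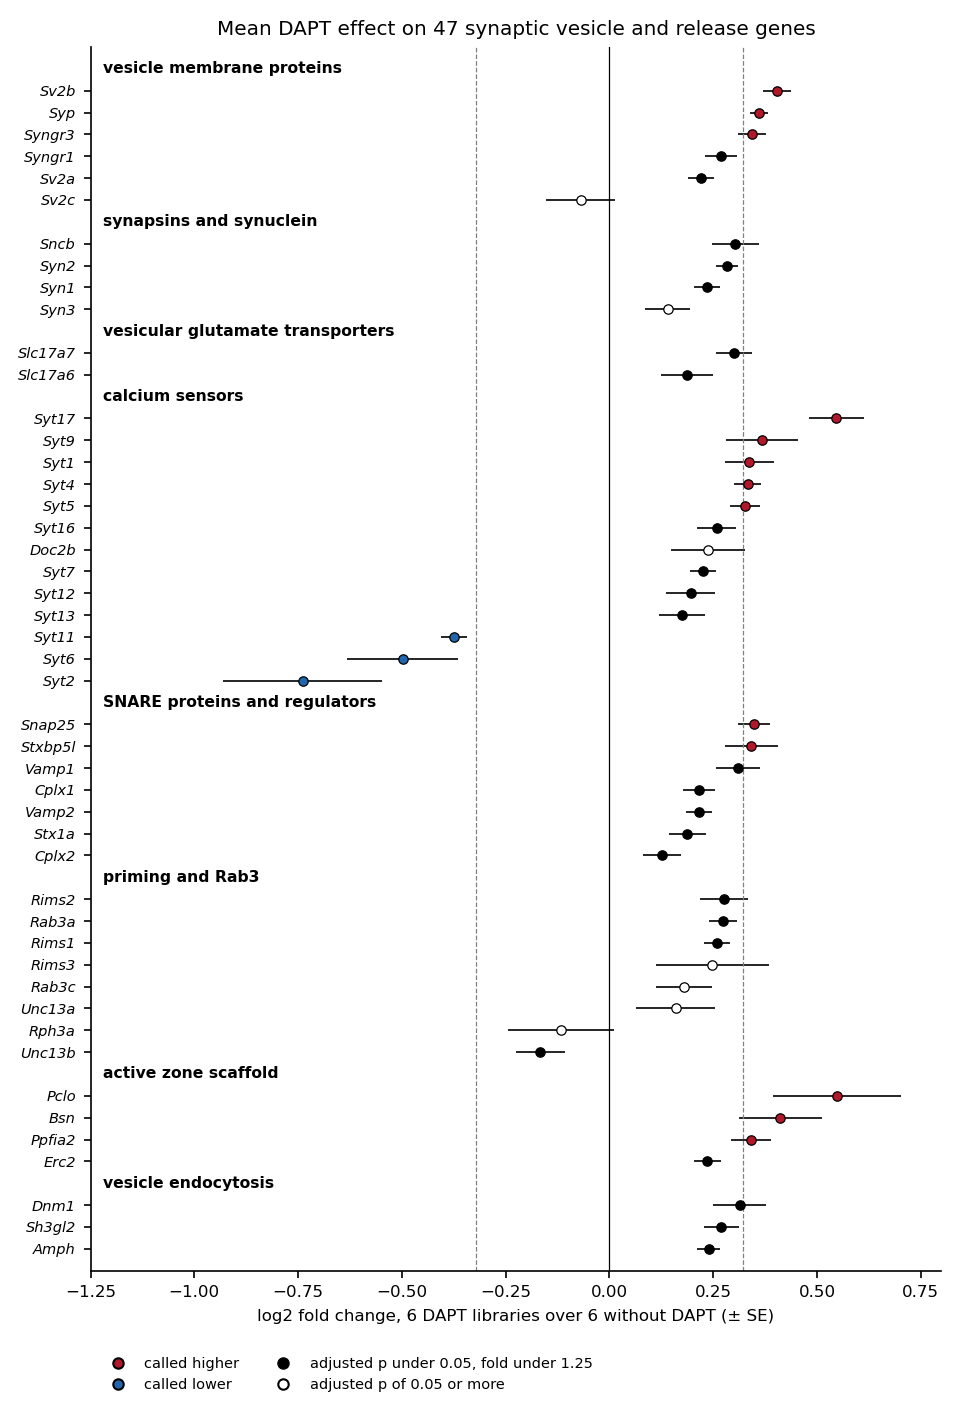
Log2 fold change of each of the 47 members in the mean DAPT effect (horizontal axis, ± SE, 6 DAPT libraries over 6 without DAPT), grouped by role; dashed lines mark the fold limit. The 13 members called higher are red and the 3 called lower blue, and values run from -0.74 for Syt2 to 0.55 for Pclo.

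Markers of the cell types in the culture also had calls, and their part in the members' differences was not tested. Pan-neuronal genes that are not members summed to 3647 to 4072 CPM in the 6 DAPT libraries, against 3184 to 3538 CPM in the 6 without, with 3 of 24 called higher (Nefl, Stmn2 and Scg2), none lower, 22 positive, and a median log2 fold change of 0.20. Of the glutamatergic list 3 of 9 were called higher and none lower, with sums of 709.8 to 828 CPM with DAPT and 569 to 680.3 CPM without. Of the GABAergic list 1 of 10 was called higher (Sst) and 1 lower, with sums of 623 to 703 CPM and 619 to 778 CPM. Radial glia genes summed to 2172 to 2509 CPM with DAPT, against 4102 to 4747 CPM without, with 5 of 8 called lower, and genes of dividing cells to 30.2 to 34.1 CPM, against 72.9 to 86.7 CPM, with 10 of 10 called lower. Of oligodendrocyte precursor genes 4 of 6 were called lower (521 to 595 CPM with DAPT, against 999 to 1084 CPM without), and of astrocyte genes 4 of 10 lower and 1 higher (6611 to 7403 CPM, against 6054 to 7122 CPM). The astrocyte sum rests mainly on Gfap (mean deposited count 111564, next Slc1a3 at 17037), and the list had a median log2 fold change of -0.13 with 4 positive. The radial glia sum rests mainly on Fabp7 (43733) and Vim (28699), and 3 of its 8 genes were positive. Of pericyte and fibroblast genes 4 of 7 were lower and 1 higher (84.4 to 104 CPM, against 107 to 128 CPM). Oligodendrocyte and microglia genes had 1 call each, both lower, and endothelial genes none, at 4.28 to 6.06 CPM with DAPT and 4.58 to 5.99 CPM without. The label of a neuronal culture thus stands beside neuronal and glial markers in every library, with endothelial markers near 0.

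**Figure D2:**
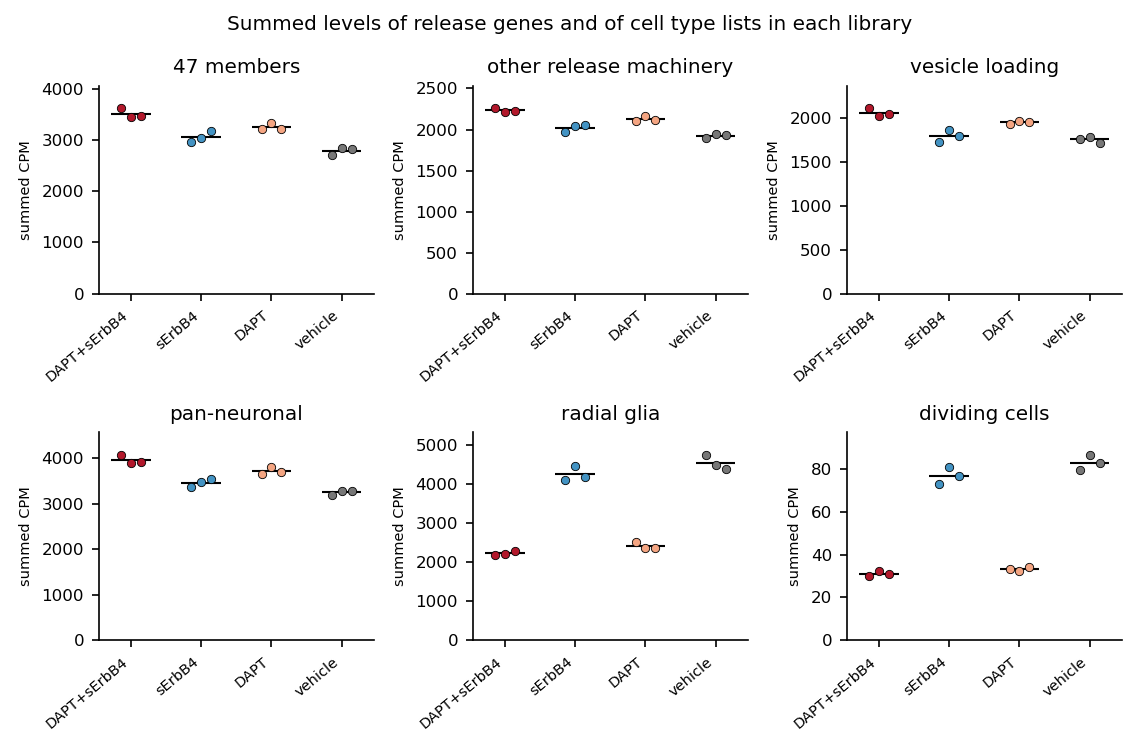
Summed CPM (vertical axes, from 0) of the 47 members, of 2 other presynaptic lists and of 3 cell type lists in each library, by group; points are libraries and lines are means of 3. Members and pan-neuronal genes were highest with DAPT+sErbB4 and lowest with vehicle, while radial glia genes and genes of dividing cells were lower in all 6 DAPT libraries than in the other 6.

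Of the 6 vesicle membrane proteins, 3 were called higher, none lower, and 5 were positive. Syp encodes synaptophysin, an abundant protein of the vesicle membrane. Syp stood at 349.7, 335 and 337 CPM with DAPT+sErbB4 and 290.4, 299 and 296 CPM with DAPT alone, against 262, 262 and 261 CPM with sErbB4 alone and 229.8, 237 and 233 CPM with vehicle. The 4 groups did not overlap in any pair, and vehicle was lowest. Its log2 fold change was 0.36 (SE 0.02, adjusted p = 1.57e-07). Sv2b, a glycoprotein of the vesicle membrane from the SV2 family, stood at 40.9, 38.6 and 38.7 CPM with DAPT+sErbB4 and 35.1, 36.6 and 34.6 CPM with DAPT alone, against 29.7, 31.4 and 27.7 CPM with sErbB4 alone and 26.5, 27.2 and 26.9 CPM with vehicle. All DAPT libraries lay above all others, and the log2 fold change was 0.40 (SE 0.03, adjusted p = 2.69e-06). Syngr3, a synaptogyrin with the same membrane layout as synaptophysin, was at 80.7, 74.4 and 73.4 CPM with DAPT+sErbB4 and 69, 70.6 and 65.3 CPM with DAPT alone, against 59.7, 63.1 and 60.7 CPM with sErbB4 alone and 52.1, 51.9 and 54.5 CPM with vehicle. Again the DAPT libraries lay apart on the high side, with a log2 fold change of 0.34 (SE 0.03, adjusted p = 1.19e-05), but the fold of Syngr3 was so close to the limit that leaving out DAPT+sErbB4 replicate 1 ended the call (log2 fold change 0.321). Syngr1 (0.27) and Sv2a (0.22) were higher by adjusted p but under the fold limit, also without overlap. Sv2c had a log2 fold change of -0.07 (adjusted p = 0.565).

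None of the 4 synapsin and synuclein genes was called, and all 4 were positive. Synapsins tether vesicles in the reserve pool. Syn2 was at 146, 149 and 141 CPM with DAPT+sErbB4 and 125, 134 and 129 CPM with DAPT alone, against 115, 119 and 115 CPM with sErbB4 alone and 107, 109 and 111 CPM with vehicle. Its DAPT libraries lay above all others, and its log2 fold change of 0.28 (SE 0.03, adjusted p = 8.11e-06) stayed under the fold limit. Syn1 had 0.24 (adjusted p = 1.25e-04) and Sncb, which encodes β-synuclein, 0.30 (adjusted p = 0.00141). Syn3 had 0.14 and an adjusted p of 0.0622.

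The vesicular glutamate transporters load glutamate into vesicles, Slc17a7 (VGLUT1) in most cortical and hippocampal excitatory neurons and Slc17a6 (VGLUT2) early in development and in subcortical neurons. Slc17a7 was at 214, 191 and 198 CPM with DAPT+sErbB4 and 175, 186 and 172 CPM with DAPT alone, against 164, 168 and 148 CPM with sErbB4 alone and 141, 157 and 145 CPM with vehicle. The DAPT libraries were all above the others, and the log2 fold change was 0.30 (SE 0.04, adjusted p = 2.08e-04), under the fold limit. Slc17a6 had a mean of 7.05 ± 0.522 CPM with DAPT+sErbB4 and 7.35 ± 0.348 CPM with DAPT, against 5.84 ± 0.206 CPM with sErbB4 and 6.82 ± 0.791 CPM with vehicle (SD, n = 3 each). The ranges overlapped, and the log2 fold change was 0.19 (SE 0.06, adjusted p = 0.035). Its sign turned under the pan-neuronal scaling.

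The synaptotagmins and Doc2b gave calls in both directions. Synaptotagmins have paired calcium-binding type domains, and Syt1, Syt2 and Syt9 are sensors of fast release, while Syt4 and Syt11 bind calcium poorly. Of these 13 genes, 5 were called higher and 3 lower. Syt17, an atypical family member, stood at 7.26, 6.7 and 7.86 CPM with DAPT+sErbB4 and 7.99, 8.49 and 7.12 CPM with DAPT alone, against 4.99, 5.52 and 5.32 CPM with sErbB4 alone and 4.58, 5.34 and 5.32 CPM with vehicle. The DAPT libraries did not overlap the others, and the log2 fold change of 0.55 (SE 0.07, adjusted p = 5.79e-05) was called in all 21 alternatives tried for it. Syt9 was at 4.35, 3.98 and 4.41 CPM with DAPT+sErbB4 and 3.67, 4.34 and 4.93 CPM with DAPT alone, against 3.06, 3.06 and 3.68 CPM with sErbB4 alone and 3.25, 3.48 and 3.41 CPM with vehicle. Its lowest DAPT library lay below the highest without DAPT, and the log2 fold change was 0.37 (SE 0.09, adjusted p = 0.00537), or 0.317 and not called without DAPT replicate 3. Syt1, the main calcium sensor of fast release in the forebrain, was at 94.3, 89.8 and 89.1 CPM with DAPT+sErbB4 and 83.5, 83.4 and 83.4 CPM with DAPT alone, against 67.9, 70.9 and 86.9 CPM with sErbB4 alone and 57.7, 64 and 68.2 CPM with vehicle. The sErbB4 replicate 3 library lay among the DAPT libraries, and the others did not overlap. Its log2 fold change of 0.34 (SE 0.06, adjusted p = 9.17e-04) fell under the fold limit without vehicle replicate 1 (0.306), sErbB4 replicate 1 (0.304) or sErbB4 replicate 2 (0.317). Syt4 (0.33, adjusted p = 9.01e-06) and Syt5 (0.33, adjusted p = 3.18e-05) were also called higher, with no overlap between DAPT libraries and the rest. Syt4 fell under the fold limit without vehicle replicate 1 (0.321) or sErbB4 replicate 1 (0.319). Syt5 did so without sErbB4 replicate 1 (0.319), DAPT replicate 3 (0.318) or DAPT+sErbB4 replicate 1 (0.301).

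The 3 members called lower with DAPT were all synaptotagmins, and each was lower in every DAPT library than in any other. Syt11, which acts in vesicle and membrane traffic, was at 213, 210.0 and 218 CPM with DAPT+sErbB4 and 224, 221 and 221 CPM with DAPT alone, against 266, 284 and 302 CPM with sErbB4 alone and 289.5, 279.9 and 272 CPM with vehicle. Its log2 fold change was -0.37 (SE 0.03, adjusted p = 3.47e-06). Syt6 was at 1.17, 1.23 and 1.21 CPM with DAPT+sErbB4 and 0.858, 1.16 and 1.18 CPM with DAPT alone, against 1.49, 1.31 and 1.47 CPM with sErbB4 alone and 1.88, 1.57 and 1.96 CPM with vehicle, a log2 fold change of -0.50 (SE 0.13, adjusted p = 0.0121). Syt2, the fast sensor of many hindbrain neurons and of some interneurons, was at 0.609, 0.579 and 0.569 CPM with DAPT+sErbB4 and 0.78, 0.492 and 0.588 CPM with DAPT alone, against 1.17, 0.894 and 1.1 CPM with sErbB4 alone and 1.1, 0.843 and 0.956 CPM with vehicle, a log2 fold change of -0.74 (SE 0.19, adjusted p = 0.00967). Syt2 and Syt6 were sparse, with 11.3 to 29.3 and 22.1 to 48.1 deposited counts per library, and their levels are known only roughly. All 3 lost the call, with the same direction, in limma on log2(CPM + 2) values, a scale that shrinks the differences of low genes such as Syt2 and Syt6. For Syt11 the limma value was -0.310, just inside the limit. Of the other members of this group, Syt7, Syt12, Syt13 and Syt16 were higher by adjusted p, at 0.17 to 0.26 on the log2 scale, and Doc2b had 0.24 (adjusted p = 0.055).

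**Figure D3:**
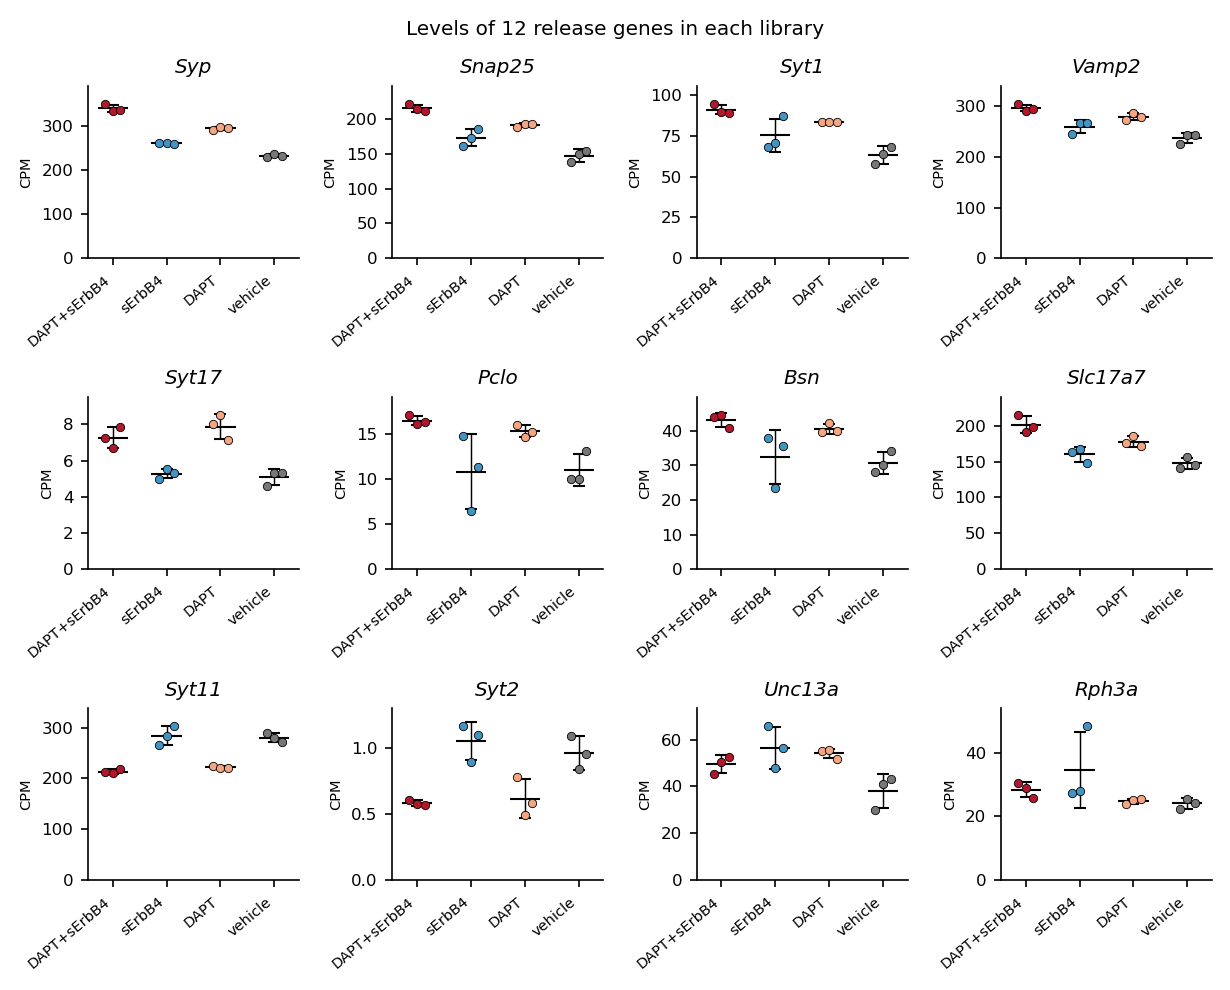
CPM (vertical axes, from 0) of 12 members in each library by group; points are libraries, with the mean and SD of 3 as lines. Syp, Snap25 and Syt17 were higher and Syt11 and Syt2 lower in all DAPT libraries, while Pclo, Bsn, Unc13a and Rph3a spread widely within sErbB4 alone.

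Of the 7 SNARE proteins and regulators, 2 were called higher and all were positive. Snap25, the SNARE of the presynaptic membrane, was at 221, 214 and 211 CPM with DAPT+sErbB4 and 188, 193 and 193 CPM with DAPT alone, against 161, 173 and 185 CPM with sErbB4 alone and 137, 149.7 and 155 CPM with vehicle. Every DAPT library exceeded every other, with a log2 fold change of 0.35 (SE 0.04, adjusted p = 2.92e-05). Vamp2 (synaptobrevin 2), the SNARE of the vesicle, stood at 304, 292 and 295 CPM with DAPT+sErbB4 and 273, 287 and 279 CPM with DAPT alone, against 246, 266 and 267 CPM with sErbB4 alone and 225, 244 and 243 CPM with vehicle. It likewise showed no overlap, but its log2 fold change was smaller, 0.22 (SE 0.03, adjusted p = 2.11e-04), and was not called. Stxbp5l encodes a tomosyn, which holds SNARE proteins back from assembly. Stxbp5l was at 8.74, 8.72 and 8.22 CPM with DAPT+sErbB4 and 7.64, 7.02 and 7.94 CPM with DAPT alone, against 7.57, 6.35 and 6.59 CPM with sErbB4 alone and 5.83, 5.23 and 6.55 CPM with vehicle. The sErbB4 replicate 1 library lay above the lowest DAPT library, and the log2 fold change of 0.34 (SE 0.06, adjusted p = 0.00141) lost its call without vehicle replicate 2 (0.307) or sErbB4 replicate 2 (0.316). Vamp1 (0.31), Stx1a (0.19) and the complexins Cplx1 (0.22) and Cplx2 (0.13), which clamp and aid fusion, were higher by adjusted p only. Stx1a and Cplx2 turned negative, without a call, under the pan-neuronal scaling.

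The priming proteins and Rab3 GTPases had values in both directions, with none of 8 called in the mean DAPT effect. Rab3a, the GTPase that recruits RIM proteins to vesicles, was at 221, 199.8 and 208 CPM with DAPT+sErbB4 and 187, 198 and 189.6 CPM with DAPT alone, against 163, 174 and 178 CPM with sErbB4 alone and 157, 164 and 157 CPM with vehicle. The DAPT libraries lay above the rest, and the log2 fold change was 0.27 (SE 0.03, adjusted p = 6.10e-05). Rims1 (0.26) and Rims2 (0.28), active zone proteins that bind Rab3, were also higher by adjusted p and without overlap. Unc13b (Munc13-2) was lower by adjusted p (-0.17, adjusted p = 0.0449), which held in 6 of 21 alternatives. Rims3, Rab3c, Unc13a and Rph3a (rabphilin, a Rab3 effector) did not pass, with log2 fold changes of 0.25, 0.18, 0.16 and -0.12. Of these, Rims3 and Rph3a each had a library that stood out, sErbB4 replicate 3, at 13.5 CPM for Rims3 (7.21 to 10.9 CPM in all others) and 48.2 CPM for Rph3a (22.3 to 30.3 CPM in all others).

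Of the 4 active zone scaffold genes, 3 were called higher. Pclo and Bsn encode piccolo and bassoon, giant proteins that organize the active zone. Pclo was at 17, 16.1 and 16.3 CPM with DAPT+sErbB4 and 16, 14.7 and 15.2 CPM with DAPT alone, against 14.7, 6.42 and 11.3 CPM with sErbB4 alone and 9.98, 9.94 and 13.1 CPM with vehicle. The libraries with sErbB4 alone spread widely, and the highest of them reached the lowest DAPT library. The log2 fold change was 0.55 (SE 0.15, adjusted p = 0.0147). Bsn stood at 44, 44.5 and 40.9 CPM with DAPT+sErbB4 and 39.8, 42.3 and 39.8 CPM with DAPT alone, against 38, 23.5 and 35.7 CPM with sErbB4 alone and 28, 30.1 and 34.1 CPM with vehicle. No DAPT library overlapped the rest, and sErbB4 replicate 2 was lowest. Its log2 fold change of 0.41 (SE 0.10, adjusted p = 0.00642) was 0.316, under the fold limit, without that library. Ppfia2, a liprin-α of the active zone, was at 28.5, 29.8 and 26.3 CPM with DAPT+sErbB4 and 24.6, 26.1 and 26 CPM with DAPT alone, against 24.2, 21.5 and 23.2 CPM with sErbB4 alone and 18.2, 19.4 and 21.4 CPM with vehicle. All DAPT libraries lay above all others, and the log2 fold change of 0.34 (SE 0.05, adjusted p = 1.78e-04) was under the limit without vehicle replicate 1 (0.311), sErbB4 replicate 2 (0.317) or DAPT+sErbB4 replicate 2 (0.319). Erc2 (CAST), which binds RIM proteins, had 0.24 (SE 0.03, adjusted p = 1.63e-04).

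The 3 genes of vesicle endocytosis were higher by adjusted p and none was called. Amph encodes amphiphysin, which brings dynamin to the neck of a forming vesicle. Amph was at 106, 104 and 103 CPM with DAPT+sErbB4 and 92.6, 96.7 and 93 CPM with DAPT alone, against 83.8, 89.2 and 89.2 CPM with sErbB4 alone and 77.9, 83.7 and 80.4 CPM with vehicle. The DAPT libraries lay above the rest, with a log2 fold change of 0.24 (SE 0.03, adjusted p = 4.99e-05). Dnm1 (dynamin 1) had 0.31 and Sh3gl2 (endophilin A1) 0.27.

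DAPT was compared with vehicle and DAPT+sErbB4 with sErbB4 in libraries that are not shared. With DAPT against vehicle, 14 members (29.8%) were called higher, against 4.66% of all genes, and 2 (4.26%) lower, against 6.92%. With DAPT+sErbB4 against sErbB4, which the study uses to read nuclear back signaling, 8 members (17%) were called higher, against 4.55% of all genes, and 2 (4.26%) lower, against 7.15%. The 8 became 4 without DAPT+sErbB4 replicate 1 and 12 without sErbB4 replicate 3, and under the pan-neuronal scaling 0 members were higher and 5 lower, with 1.39% of all genes higher and 20.2% lower. By adjusted p alone 30 and 34 members were higher, against 10.3% and 11.1% of all genes, and 29 members passed in both, 28 of them higher and Syt11 lower. The median log2 fold change of the members was 0.27 for DAPT against vehicle and 0.26 for DAPT+sErbB4 against sErbB4, and 45 of 47 had the same sign in both, against 78.2% of all genes. Across the 47 genes the values of both comparisons had a Pearson r of 0.79 and a Spearman rho of 0.65, a description over genes that share libraries. Called in both were 6 members: Sv2b, Syp, Stxbp5l, Syt4 and Syt17, all higher, and Syt11, lower. The shares of all genes that passed in both comparisons were not counted, so neither the 6 nor the 29 can be set against a background. Stxbp5l lost its call, as its adjusted p passed 0.05, against vehicle without vehicle replicate 1 (0.350), vehicle replicate 2 (0.288) or DAPT replicate 3 (0.333), and against sErbB4 without sErbB4 replicate 2 (0.274), sErbB4 replicate 3 (0.303) or DAPT+sErbB4 replicate 1 (0.312) or 2 (0.312). Those of these values under 0.32 missed the fold limit too. By fold alone Stxbp5l also lost both calls in limma (0.245 and 0.237), and that against sErbB4 with unnamed loci kept (0.321). Syt4 fell under the fold limit against vehicle without vehicle replicate 1 (0.300) or DAPT replicate 3 (0.320), and against sErbB4 without sErbB4 replicate 1 (0.314). Syt11 did so against vehicle without vehicle replicate 1 (-0.313) or DAPT replicate 3 (-0.319). Under the pan-neuronal scaling none of the 5 was called higher in both comparisons. Bsn, Syt2 and Syt9 passed narrowly in DAPT+sErbB4 against sErbB4, with adjusted p of 0.0468, 0.0407 and 0.0388, and kept the call in 4, 6 and 11 of 22 alternatives, the replicates left out in turn among them.

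Several members passed in only 1 comparison of the pair. Unc13a, which encodes Munc13-1, the main priming factor of excitatory synapses, was at 55.1, 55.5 and 51.7 CPM with DAPT, against 29.9, 41 and 43.3 CPM with vehicle, a log2 fold change of 0.51 (SE 0.14, adjusted p = 0.0183). It was at 45.3, 50.6 and 52.6 CPM with DAPT+sErbB4, against 65.6, 47.7 and 56.5 CPM with sErbB4, a log2 fold change of -0.19 (SE 0.13, adjusted p = 0.352). The call of Unc13a against vehicle was lost, as its adjusted p passed 0.05, without vehicle replicate 1 (0.358), DAPT replicate 1 (0.508) or DAPT replicate 2 (0.492). Rims1, Sncb and Vamp1 were called with DAPT against vehicle only, at 0.36, 0.34 and 0.35, and had 0.16, 0.27 and 0.27 with DAPT+sErbB4 against sErbB4. Sncb fell under the fold limit without vehicle replicate 3 (0.286) or DAPT replicate 2 (0.297), and Vamp1 without vehicle replicate 1 (0.309) or DAPT replicate 3 (0.299). Slc17a7 and Bsn were called only with DAPT+sErbB4 against sErbB4, at 0.33 and 0.42, and had 0.27 and 0.40 with DAPT against vehicle. Slc17a7 fell under the fold limit without sErbB4 replicate 3 (0.278) or DAPT+sErbB4 replicate 1 (0.281). Ppfia2, Snap25, Syngr3, Syt1 and Syt5 were also called higher with DAPT against vehicle only, and passed by adjusted p in both comparisons. Syt6 was called lower with DAPT against vehicle only. Syt9 was called higher, and Syt2 lower, with DAPT+sErbB4 against sErbB4 only. None of these differences between the comparisons passed the interaction test. Of all members, 3 passed 0.05 in the interaction before adjustment (3.61% of all genes did), with log2 differences of -0.70 for Unc13a, -0.21 for Rims1 and -0.15 for Syt7, and none after it. No member was called in the interaction by edgeR, DESeq2 or limma, and 0.00639% of all genes were called higher and 0% lower by edgeR.

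**Figure D4:**
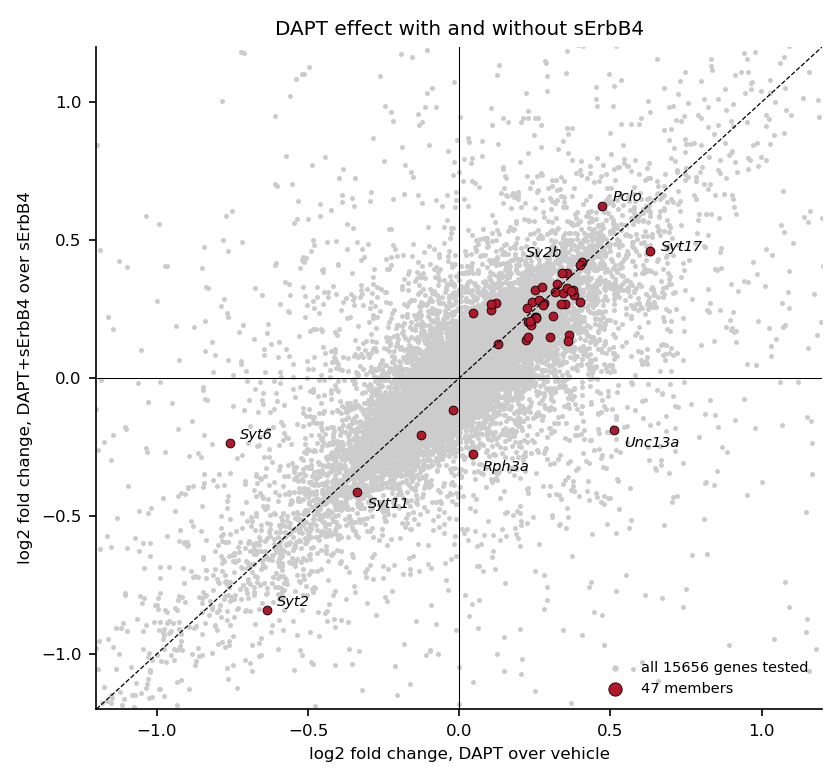
Log2 fold change with DAPT+sErbB4 over sErbB4 (vertical axis) against DAPT over vehicle (horizontal axis) for the 47 members (red) and all genes tested (grey), with a dashed line of equality; 720 genes lie outside the plotted range of ± 1.2. Of the members, 45 lie in quadrants of equal sign, and Unc13a and Rph3a do not.

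No member was called for sErbB4, although most had positive values. In the mean sErbB4 effect, the 6 libraries given sErbB4 against the 6 without, no member was called, against 0.0128% of all genes higher and 0.0319% lower, and none was called by DESeq2 or limma either. The median log2 fold change was 0.12 over the members and 0.00 over all genes, 41 members were positive, and 31 had an unadjusted p under 0.05, of which 29 were higher, against 12.7% of all genes under 0.05 in either direction. The highest value was that of Rph3a (0.36, adjusted p = 0.259), whose sErbB4 replicate 3 stood apart as given above. Syp alone passed by adjusted p, against 0.0575% of all genes higher by that rule. Its log2 fold change was 0.19 (SE 0.02, adjusted p = 0.00962), under the fold limit, and Syp averaged 340.5 ± 8.09 CPM with DAPT+sErbB4 and 295 ± 4.4 CPM with DAPT, and 261 ± 0.557 CPM with sErbB4 and 233 ± 3.69 CPM with vehicle (SD, n = 3 each). By adjusted p alone DESeq2 gave 16 members higher and 1 lower, with 0.952% of all genes higher and 0.895% lower by that rule, and limma gave no member. Snap25 (SNARE) and Syngr3 came next, at 0.20 and 0.18 on the log2 scale, with adjusted p of 0.0704 and 0.0691 in edgeR. With sErbB4 against vehicle no member was called, against 0.00639% of all genes higher and 0.0255% lower, and 28 members had an unadjusted p under 0.05, against 7.56% of all genes, with Unc13a highest at 0.57 (SE 0.14, adjusted p = 0.382). With DAPT+sErbB4 against DAPT none was called, as was the case for all genes (0% in either direction), and 12 members had an unadjusted p under 0.05, against 9.21% of all genes. The smallest adjusted p of any gene in that comparison was that of Syp, 0.0795, with a log2 fold change of 0.21. Group means ran in the order vehicle, sErbB4, DAPT, DAPT+sErbB4, low to high, for 31 of 47 members, against 12.8% of all genes tested. Median sums of the pan-neuronal and glutamatergic lists ran in the same order, and those of the GABAergic list did not. In the mean sErbB4 effect 21 of 24 pan-neuronal genes were positive (median 0.09), 7 of 9 glutamatergic (0.15) and 8 of 10 GABAergic (0.15). Under the pan-neuronal scaling the members' median was 0.03, with 31 positive, against -0.09 over all genes. The part of neuronal genes as a whole was not tested.

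The study also set sErbB4 against DAPT, which differ in both agents. Here Syt11 was called higher with sErbB4, against 6.04% of all genes, and Syt17, Syt9, Syt12 and Slc17a6 lower, against 4.05% of all genes. Syt12 was at 58.9, 63.7 and 48.5 CPM with sErbB4, against 77.7, 73.2 and 71.7 CPM with DAPT, a log2 fold change of -0.38 (SE 0.08, adjusted p = 0.00781). Slc17a6 was at 6, 5.91 and 5.6 CPM with sErbB4, against 7.06, 7.73 and 7.25 CPM with DAPT, with a log2 fold change of -0.33 (SE 0.09, adjusted p = 0.0208). In neither gene did the groups overlap. By adjusted p alone 14 members were lower with sErbB4, against 9.04% of all genes. This comparison shares its libraries with those above and adds no separate evidence.

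**Figure D5:**
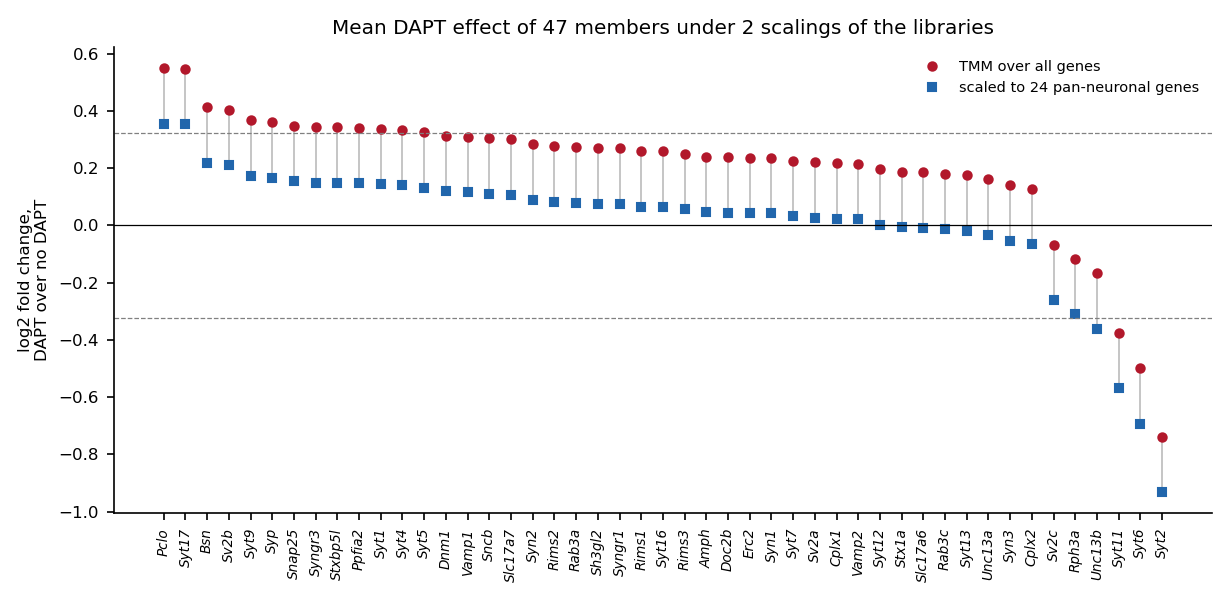
Log2 fold change of the 47 members in the mean DAPT effect (vertical axis) with libraries scaled by TMM over all genes (red circles) and to 24 pan-neuronal genes (blue squares); dashed lines mark the fold limit. All members shift down together, 7 turn negative, and Syt17 is the member called higher under both scalings.

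Presynaptic lists outside the 47 had smaller medians than the members. In the mean DAPT effect 5.54% of all genes tested were called higher and 7.70% lower, the shares to set beside the counts below. Of 47 tested genes of other release machinery, 5 were called higher in the mean DAPT effect, among them Stx3, Synpr, Rab3d and Napb, and 1 lower, Syngr2, with a median log2 fold change of 0.13 and 37 positive. Synpr (synaptoporin, a vesicle protein related to synaptophysin that is abundant in mossy fibers) had a log2 fold change of 0.39. Syngr2, a synaptogyrin also made outside the nervous system, had -0.44. Of 18 tested genes of vesicle loading, 2 were called higher, Slc17a8 (VGLUT3) and the proton pump subunit Atp6v1g2, none lower, and all 18 were positive, with a median of 0.18. Of 28 genes of recycling and endocytosis, 1 was called higher (Sh3gl3) and none lower, and the median was 0.06. Under the pan-neuronal scaling none of these genes was called higher, and the medians were -0.07 for other release machinery, -0.01 for vesicle loading and -0.13 for recycling and endocytosis, against -0.18 over all genes. Called lower there were 6 genes of other release machinery (Cask, Cplx3, Ppfia1, Rab27b, Snap23 and Syngr2), 4 of recycling and endocytosis (Dnm2, Picalm, Sh3gl1 and Sh3glb2) and none of vesicle loading. Of all genes, 1.56% were called higher and 21.2% lower under that scaling.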

How the data were processed

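RNA from 12 libraries of WT hippocampal cultures was sequenced by the study. Per the paper and the submitters' processing notes, Trimmomatic was used for trimming, HISAT2 for alignment to mm10, StringTie for assembly and IsoformSwitchAnalyzeR for gene values. FastQC, MultiQC and limma are named too, and versions are not given in the sources used here. The values deposited by the authors are estimated counts, with no scaling across libraries. Of 227277 values above 0, 1 is whole, so they appear rebuilt from abundances, and CPM is not scaled by gene length. The 1976 loci without a gene name (43.4 to 51.8% of a library) were left out. Rn45s held 31.4 to 44.6% of named counts, and TMM factors were 0.926 to 1.18.

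Counts were rounded, filtered with filterByExpr by group (15656 genes left), scaled by TMM and tested with edgeR 4.0.16 (R 4.3.3) by quasi-likelihood with 4 group means and 8 residual degrees of freedom. Benjamini-Hochberg adjustment ran over all genes tested. Called means an adjusted p under 0.05 and a log2 change beyond 0.32 in either direction. The SE is the log2 fold change over the root of F. Alternatives used DESeq2 1.42.0, limma 3.58.1 on log2(CPM + 2), other scalings and filters, a replicate block, and each library left out. The script was tested on simulated data. The members and gene lists were chosen with earlier results of these data known. Values are given in every library for up to 3 members called higher and 3 called lower per role in the mean DAPT effect by size of change, for the member with the highest CPM in a role with none, for members called in a sErbB4 comparison or the interaction, and for Syp, Syt1, Snap25 and Vamp2; other values were added after they were seen. Upstream sequences are from RefSeq, build GRCm38.p6. Values of some single genes of the comparison lists are not reported here.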

Additional observations from a re-analysis of the deposited data

How the results depend on the processing

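The results above rest on edgeR with TMM scaling. For the mean DAPT effect (13 members higher and 3 lower), RLE normalization, DESeq2, no filter on low counts, unnamed loci kept, Rn45s left out of library sizes and unrounded counts gave 13 and 3. Scaled to pan-neuronal genes the counts were 1 and 4 (1.56% and 21.2% of all genes), and limma on cyclic loess log2(CPM + 2) values gave 15 and 0 (3.09% and 5.66%). The 15 are not the 13 with additions. In limma Ppfia2 (0.313), Stxbp5l (0.241) and Syt9 (0.217) fell under the fold limit, and Dnm1, Rab3a, Slc17a7, Sncb and Syn2 were newly called higher. For DAPT against vehicle (14 and 2) the pan-neuronal scaling gave 1 and 3 (1.30% and 20.5% of all genes), limma 16 and 1 (3.20% and 5.65%), and unnamed loci kept 1 lower. For DAPT+sErbB4 against sErbB4 (8 and 2) the pan-neuronal scaling gave 0 and 5 (1.39% and 20.2% of all genes), and 1 was lower with DESeq2, with no filter, with limma and with only the libraries compared. For sErbB4 against DAPT (1 and 4) limma gave 0 and 2 (4.86% and 3.07% of all genes) and the pan-neuronal scaling 4 and 1 (10.8% and 2.32%). The cause of these shifts was not tested, nor was the part of the limma pseudocount in the lost calls of Syt2 and Syt6.

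Leaving out 1 library at a time gave 9 to 18 higher and 3 to 3 lower in the mean DAPT effect, 10 to 16 and 1 to 2 for DAPT against vehicle, 4 to 12 and 1 to 2 for DAPT+sErbB4 against sErbB4, and 0 to 3 and 2 to 5 for sErbB4 against DAPT. The 4 came without DAPT+sErbB4 replicate 1 and the 12 without sErbB4 replicate 3. In sErbB4 against DAPT, 2, 3 and 0 were higher without sErbB4 replicates 1, 2 and 3, and 2 were lower without DAPT replicate 2. In DAPT against vehicle 1 was lower without vehicle replicate 1, DAPT replicate 1 or DAPT replicate 3. In DAPT+sErbB4 against sErbB4 1 was lower without any single library other than DAPT replicate 1. Counts in the mean sErbB4 effect, sErbB4 against vehicle, DAPT+sErbB4 against DAPT and the interaction were 0 in every alternative run. By adjusted p alone the mean sErbB4 effect had 1 member higher in edgeR (0.0575% of all genes), 16 in DESeq2 (0.952%) and 0 in limma (0.00639%).

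Replicate numbers were not shown to pair libraries: same-numbered libraries of different groups had correlations of deviations of -0.28 to 0.36 over 18 pairs (median 0.06), and 4 of 12 libraries were closest to their own number. With replicate block, the mean DAPT effect had 13 and 3 calls, DAPT against vehicle 15 and 2, and DAPT+sErbB4 against sErbB4 8 and 1. Depth limited Syt2 and Syt6 most, at 11.3 to 48.1 deposited counts per library.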
